A study of Mus musculus with 16 samples.

Results

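The striatum of healthy mice that had performed well or badly in behavioural tests was compared by RNA-seq. The libraries were the 8 of the 16 in the study that came from wild-type mice, 4 labelled “good” and 4 labelled “poor”, and they were taken by their labels alone. The other 8 libraries came from R6/1 mice, which carry exon 1 of the human huntingtin gene with an expanded CAG repeat and model Huntington’s disease (HD). The wild-type mice were littermates of the R6/1 mice without the transgene. All mice of this comparison were untreated C57Bl/6 males of 14 weeks, housed alone from before the tests, and each library was the striatum of 1 mouse. The R6/1 mice were likewise males of 14 weeks on that strain background, 4 labelled “good” and 4 labelled “poor”. “Good” and “poor” stood for the extremes of combined Z-scores of the rotarod test (motor coordination), feet clasping and body weight within the genotype. Both wild-type groups were therefore healthy mice picked from the ends of a distribution. The labels do not give the cohort or litter of each mouse, and differences between cohorts cannot be told apart from those between mice.

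Between 19107671 and 23148483 counts per library were assigned to genes in the wild-type “good” mice, and between 20250680 and 24897354 in the wild-type “poor” mice. The table lists 55450 genes, and the 19363 that reached 10 counts in 4 or more libraries of the study were tested. The column names of the libraries end in a running number from 1 to 16. The 3 wild-type libraries with numbers 1 to 8 (“good” mice 1 and 4, “poor” mouse 1) had 19107671 to 20250680 counts, and the 5 with numbers 9 to 16 (“good” mice 2 and 3, “poor” mice 2, 3 and 4) had 21529188 to 24897354, with no overlap. What the running number stands for is not stated, and it is treated here only as a property of the libraries. The column names of “good” mice 1 and 2 begin with 8 and 8b, the only prefixes that share a number. Whether these mice were related in some way is not stated. No pair of wild-type libraries was a copy of another, with a chi-square statistic per degree of freedom of 8.73 to 39.8 over the 28 pairs. The 13 mRNAs encoded by the mitochondrial genome were listed at 0 in all libraries. Values below are counts scaled to library size (CPM), and whenever 4 values of a group are listed they stand in the order of mice 1 to 4.

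The striatum is built mainly of medium spiny neurons, inhibitory cells that receive glutamate from cortex and thalamus and dopamine from the midbrain. One class expresses the dopamine receptor Drd1 with the peptides substance P (Tac1) and dynorphin (Pdyn) and feeds the direct pathway, and the other expresses Drd2 with enkephalin (Penk) and feeds the indirect pathway. Both classes share DARPP-32 (Ppp1r1b), a phosphatase inhibitor that integrates dopamine and glutamate signals, and the phosphodiesterase Pde10a. A dissected striatum also holds interneurons, glia and vessels, and it borders on cortex, septum, ventricle, hypothalamus and thalamus, so pieces of these can come with it. The tissue label was borne out by these markers in all 8 mice. Penk lay at 1161 to 1867 CPM, Ppp1r1b at 987 to 1592 CPM, Pde10a at 994 to 1819.9 CPM, Drd1 at 218 to 357 CPM and Drd2 at 208 to 399.6 CPM.

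No gene passed the test between wild-type “poor” and wild-type “good” striatum after correction for multiple tests. Of 19363 genes, 0 (0.0%) passed an adjusted p of 0.05 in edgeR’s quasi-likelihood test, and DESeq2 also called 0. The smallest adjusted p was 0.9998. At an unadjusted p under 0.05 there were 472 genes (2.44%), 199 of them higher (1.03%) and 273 lower (1.41%) in “poor” mice, and DESeq2 gave 431. An even spread of p-values over 20 bins would have put 968 genes in each, the lowest included. In 151 genes (0.78%) every “poor” mouse lay above every “good” mouse, and in 189 genes (0.976%) every “poor” mouse lay below. The direction was balanced, with 50.4% of genes higher and 49.6% lower, and a median log2 fold change of 0.00098. Fold changes here are “poor” relative to “good” mice, so a positive value means higher in “poor” mice.

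The absence of calls came with intervals narrow enough to bound most genes. For 14510 genes the average log2 CPM was 1 or more, and among them the median standard error of the log2 fold change was 0.11. In 14024 of these (96.7%) the 95% confidence interval lay within a change of 2-fold in either direction, and for 12094 (83.3%) within 1.5-fold. Each gene outside these bounds could have differed by more than that at this number of mice. The genes outside include several with the largest spread between mice, described further on.

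**Figure D1:**
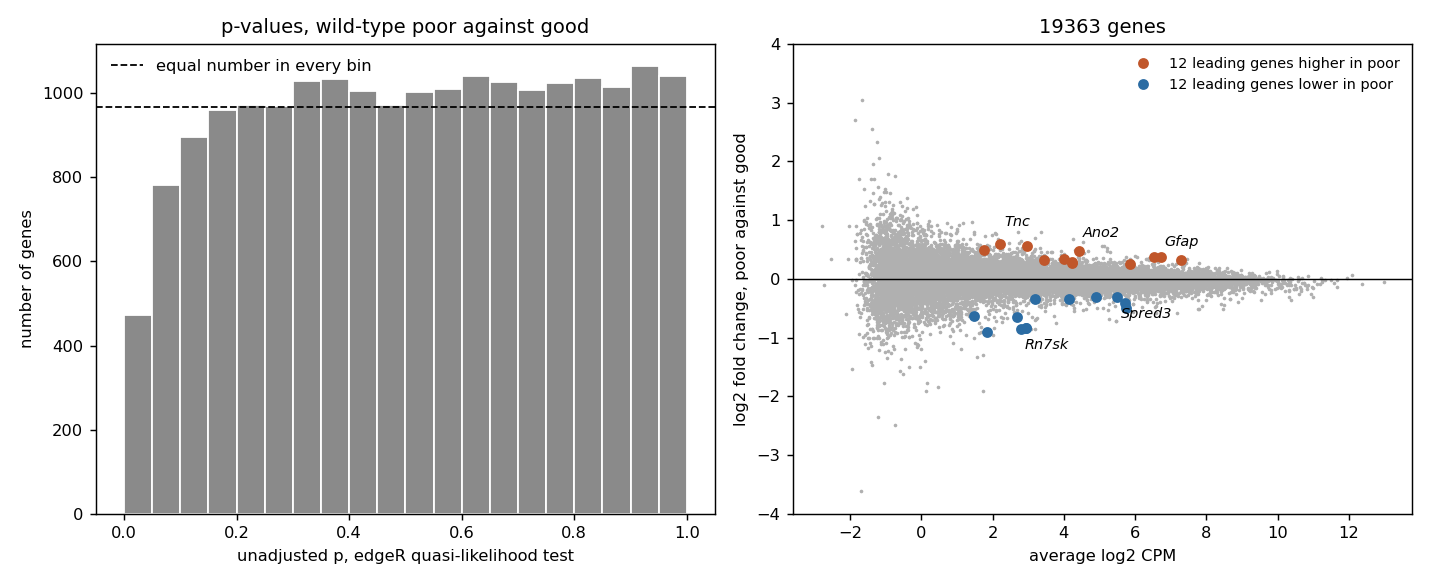
Left, number of genes (y axis) in 20 equal bins of the unadjusted p-value (x axis) for wild-type “poor” against “good” striatum, with a dashed line at the 968 genes per bin of an even spread; the lowest bin holds 472 genes. Right, log2 fold change (y axis) against average log2 CPM (x axis) for 19363 genes, with the 12 leading genes in each direction in colour; all 24 lay within 1 log2 unit of 0 and none passed the adjusted threshold.

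The genes with the smallest p-values are given as a description of the top of the ranking, since none passed the adjusted threshold. At the top among those higher in “poor” mice was Ano2, which encodes a calcium-activated chloride channel (chromosome 6, 125690419 to 126040126, GRCm38). It read 16.8, 18.5, 18.5 and 18.4 CPM in the “good” mice and 24.1, 21.1, 29.9 and 24.7 CPM in the “poor” mice. The groups did not overlap, with a log2 fold change of 0.47 (95% confidence interval 0.23 to 0.71) and an unadjusted p of 0.00119. Next came Igfbp5, a binding protein of insulin-like growth factors, at 125, 128, 145 and 159 CPM in the “good” mice and 163, 168, 199.5 and 165 CPM in the “poor” mice. Its groups did not overlap either, and it had a log2 fold change of 0.32 (95% confidence interval 0.10 to 0.53).

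Gfap, the intermediate filament of astrocytes that rises when they become reactive, was among these leading genes and is also one of the degeneration markers that the study names. It read 94.3, 72.3, 111 and 88.7 CPM in the “good” mice and 120.1, 129, 110.4 and 113 CPM in the “poor” mice. The groups overlapped, since “good” mouse 3 lay above “poor” mouse 3, and the estimate was a log2 fold change of 0.37 (95% confidence interval 0.11 to 0.62). Of the 20 astrocyte markers, Gfap included, 8 were higher and 12 lower in “poor” mice, with a median of -0.05. Tnc, the matrix protein tenascin C, which astrocytes and neural progenitors make, had a log2 fold change of 0.59 (95% confidence interval 0.16 to 1.03) from 3.71, 2.68, 3.4 and 4.75 CPM against 5.27, 5.73, 6.55 and 4.31 CPM. Rbm3, an RNA-binding protein induced by cold, had a log2 fold change of 0.38 (95% confidence interval 0.12 to 0.64).

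The other leading genes higher in “poor” mice were Lmln, a metallopeptidase, Rab30, a GTPase of the Golgi, Traf3ip2, an adaptor of interleukin signalling, BE692007, Cdkl4, a protein kinase, Svil, an actin-binding protein, and Jade3, a chromatin protein. Their log2 fold changes ran from 0.25 (Rab30) to 0.56 (Traf3ip2). Lmln, BE692007, Cdkl4, Svil and Jade3 did not overlap between groups. The mean levels of ependymal, choroid plexus and thalamic markers, given further on, also differed between these mice, and their part in these genes was not tested.

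The leading gene lower in “poor” mice was Spred3, an inhibitor of Ras and MAP kinase signalling (chromosome 7, 29158829 to 29170411, GRCm38). It read 50.8, 54.3, 44.6 and 50.8 CPM in the “good” mice and 38.7, 43.2, 39.2 and 40.02 CPM in the “poor” mice. The groups did not overlap, with a log2 fold change of -0.32 (95% confidence interval -0.49 to -0.14) and an unadjusted p of 0.00201. Dhrs3, which reduces retinaldehyde, had a log2 fold change of -0.34 (95% confidence interval -0.56 to -0.13) from 22.4, 18.8, 17.8 and 19.3 CPM against 14.9, 16.7, 14.4 and 15.7 CPM. Its groups did not overlap, and neither did those of A4galt, the synthase of a globoside of the cell surface (log2 fold change -0.64), Poc1a, a centriole protein (log2 fold change -0.34), and Gm14403 (log2 fold change -0.31).

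Among the 12 leading genes lower in “poor” mice, 4 were annotated in the same class of small non-coding RNA. They were Rn7sk, the small nuclear RNA that holds the transcription elongation factor P-TEFb inactive, and Gm24447, Gm26315 and Gm26035. Rn7sk read 9.13, 8.14, 9.32 and 8.45 CPM in the “good” mice and 7.32, 2.96, 5.01 and 4.18 CPM in the “poor” mice. Gm24447 and Gm26315 had nearly the same values as each other in every library, with log2 fold changes of -0.84 and -0.83, and Gm26035 had -0.90. In all 4 the groups did not overlap. Genes of such a class can be similar in sequence and share reads, but their sequences were not compared. The 4 are therefore not counted as separate observations, and their separate values are uncertain. They are not polyadenylated mRNAs, and what reached the mRNA libraries can vary with the selection of polyadenylated RNA, which was not tested. Pglyrp1, a secreted protein that binds bacterial cell walls, had a log2 fold change of -0.65 (95% confidence interval -1.06 to -0.23), with overlap between groups. Zdhhc14, a palmitoyltransferase (log2 fold change -0.50), and Mpp3, a membrane scaffold (log2 fold change -0.40), were lower with overlap.

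A list of 15 HD-related genes was followed. It held Penk, Plk5, Itpka, Rin1 and Gabrd, which the study counts in a signature of HD shared between brain areas, and 10 others grouped with them here, most of them genes of medium spiny neurons. In wild-type mice 14 of the 15 were lower and 1 was higher in “poor” mice, and their median log2 fold change was -0.17. Over all genes tested 49.6% were lower and the median was 0.00098. One of them, Mbd2, a protein that binds methylated DNA, had an unadjusted p of 0.04998, which was 0.0542 with DESeq2 and 0.0704 with the running number in the model, and was under 0.05 in 5 of 17 alternatives. Of all genes, 1.41% were lower at an unadjusted p under 0.05. None of the 15 passed the adjusted threshold. Most of the 15 are expressed by the same neurons, so they are not independent of each other. In bulk tissue, fewer cells of a type and less RNA per cell cannot be told apart.

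Penk read 1760.4, 1867, 1361 and 1196 CPM in the “good” mice and 1598, 1281, 1437 and 1161 CPM in the “poor” mice, with a log2 fold change of -0.18 (95% confidence interval -0.50 to 0.15). Drd2 read 399.6, 391, 208 and 227 CPM in the “good” mice and 277, 236, 263 and 219.7 CPM in the “poor” mice, with a log2 fold change of -0.30 (95% confidence interval -0.79 to 0.19). Within the “good” group, mice 1 and 2 lay above all “poor” mice, mouse 3 below all of them and mouse 4 above “poor” mouse 4 alone. Ppp1r1b read 1592, 1537, 995 and 987 CPM in the “good” mice and 1255, 1003, 1159 and 987 CPM in the “poor” mice, with a log2 fold change of -0.21 (95% confidence interval -0.59 to 0.16). Drd1, at 295, 357, 218 and 231 CPM in the “good” mice and 292, 239.99, 294 and 226 CPM in the “poor” mice, had a log2 fold change of -0.07 (95% confidence interval -0.41 to 0.28). The sodium channel subunit Scn4b, at 2037, 1788, 1071 and 1053 CPM against 1448, 1159.8, 1446 and 1239 CPM, showed the same high values in “good” mice 1 and 2. Gabrd, a subunit of extrasynaptic GABA receptors, lay at 129 to 187 CPM with a log2 fold change of -0.04 (95% confidence interval -0.32 to 0.24). Plk5, a kinase-like protein, was the 1 higher gene, with a log2 fold change of 0.21.

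The order of this list rested on few mice. Among the low-numbered libraries alone (2 “good”, 1 “poor”), 8 of the 15 genes were higher and 7 lower in “poor” mice, with a median of 0.03, and among the high-numbered libraries (2 “good”, 3 “poor”) 3 were higher and 12 lower, with a median of -0.18. Without “good” mouse 1 the median was -0.09, and without “good” mouse 2 it was -0.07.

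**Figure D2:**
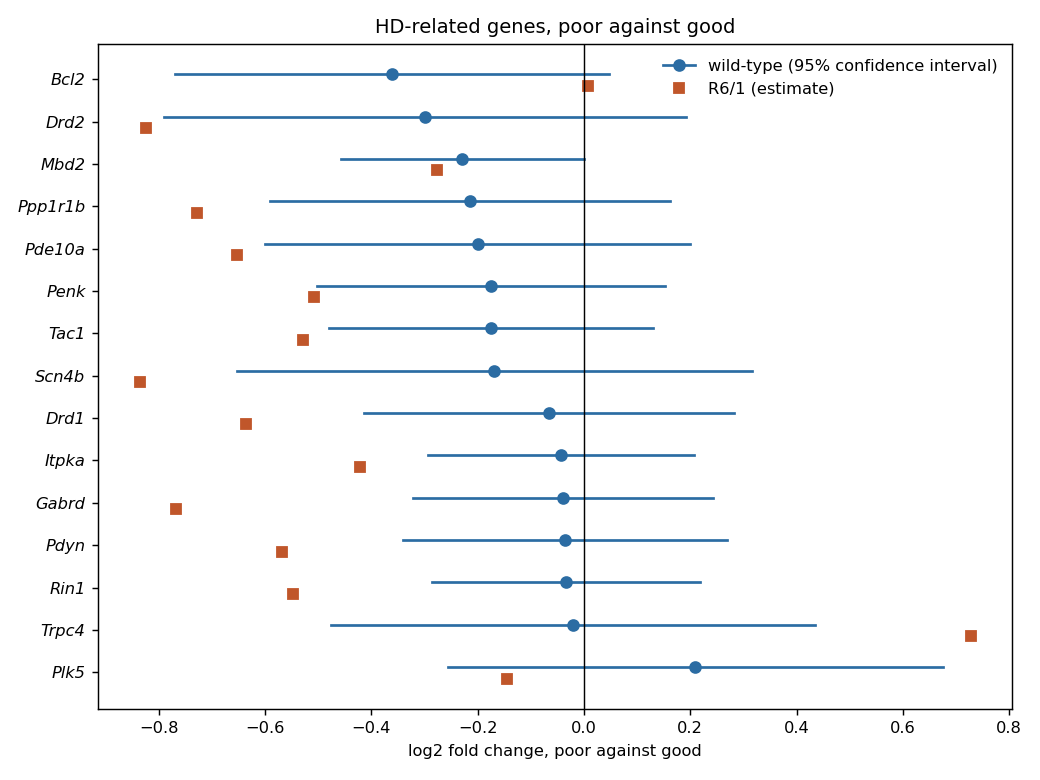
Log2 fold change of “poor” against “good” mice (x axis) for the list of 15 HD-related genes (y axis). Blue circles with lines are wild-type mice with 95% confidence intervals, all of which reach or cross 0 except that of Mbd2, which ends just below it; orange squares are the estimates in R6/1 mice, which lie between -0.84 (Scn4b) and 0.73 (Trpc4).

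The study named several of these genes from the R6/1 libraries used here, so their values there are a description. The same contrast in the 8 R6/1 mice gave -0.51 for Penk, -0.64 for Drd1, -0.83 for Drd2, -0.73 for Ppp1r1b and -0.77 for Gabrd. The difference between the genotypes was tested as an interaction. It uses the same R6/1 libraries, so its p-values for these genes are a description too. In edgeR it did not pass the adjusted threshold for any gene, and its estimate was -0.74 ± 0.24 (SE) for Gabrd, with an unadjusted p of 0.00763. For Drd1 it was -0.58 ± 0.25 (SE), with an unadjusted p of 0.0324, and for Penk -0.35 ± 0.21 (SE), with an unadjusted p of 0.114.

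A list of 14 genes was drawn up around those the study names as differing by performance in R6/1 mice, and was followed in wild-type mice. Gabrd is also among the 15 above, and Nfyb was added here as the partner of Nfya. Of the 14, 9 were higher and 5 lower in wild-type “poor” mice, with a median of 0.03, and 0 had an unadjusted p under 0.05. Cdkn1a, an inhibitor of cyclin-dependent kinases, read 7.93, 12, 14.3 and 17.7 CPM in the “good” mice and 12.8, 20.1, 12.6 and 13.3 CPM in the “poor” mice, with a log2 fold change of 0.18 (95% confidence interval -0.35 to 0.70). The axon guidance gene Slit1 read 14.1, 12.3, 25.9 and 37.9 CPM against 20.1, 23.8, 20.2 and 29.8 CPM, and the calcium channel Cacna1g 18.2, 16.8, 39.5 and 52.1 CPM against 22.5, 30.4, 32.8 and 41.1 CPM. Both were spread widely within each group, with log2 fold changes of 0.06 and 0.0045. Nfya and Nfyb, subunits of the factor that binds CCAAT boxes, had log2 fold changes of -0.25 and 0.03, and Nfkb2 one of -0.26. Of the 5 degeneration markers tested, Gfap is given above. Bcl2, an inhibitor of apoptosis that is also among the 15 genes, read 29.1, 47.1, 26.7 and 29.8 CPM in the “good” mice and 22.3, 32.1, 24.9 and 24 CPM in the “poor” mice, with a log2 fold change of -0.36 (95% confidence interval -0.77 to 0.05) and an unadjusted p of 0.077. This p was under 0.05 in 6 of 17 alternatives and ranged from 0.0041 with the replicate number as a block to 0.27 without “good” mouse 2, where the log2 fold change was -0.14. Bax, a cell death effector, lay at 17.6 to 22.3 CPM with a log2 fold change of -0.08 (95% confidence interval -0.27 to 0.12). The class I genes H2-Q7 and H2-Q6, a close copy added here, were highest in “poor” mouse 2, at 7.78, 5.23, 5.56 and 6.47 CPM against 8.25, 10.8, 6.71 and 5.61 CPM for H2-Q7.

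Groups of genes were compared by their members’ counts and by the mean log2 CPM of the list in each mouse, centred on the mean of the 8 mice. The mean of the 39 medium spiny neuron genes was 0.35, 0.38, -0.25 and -0.22 in the “good” mice and 0.12, -0.17, 0.00 and -0.21 in the “poor” mice. “Good” mice 1 and 2 were highest, and the other 6 mice, of both groups, lay below them with overlap between the groups. In all, 36 of 39 members were lower in “poor” mice, with a median of -0.15, and 0 had an unadjusted p under 0.05. Rxrg, a retinoid receptor of striatal neurons, read 248, 229, 96.3 and 114 CPM in the “good” mice and 133, 110.2, 111 and 104 CPM in the “poor” mice. The cannabinoid receptor Cnr1 read 585, 494, 262 and 231 CPM against 325, 315, 246 and 287 CPM, the G protein subunit Gng7 2052, 2191, 1209 and 1295 CPM against 1655, 1231, 1512 and 1216 CPM and the phosphatase Ptpn5 959.98, 1118, 641 and 649 CPM against 744, 617, 694 and 557 CPM. For all 4 of these genes the values of “good” mice 1 and 2 stood above all 6 other mice. Without “good” mouse 1 the list had 12 members higher and 27 lower with a median of -0.04, and without “good” mouse 2 it had 11 higher and 28 lower with a median of -0.05. Without “good” mouse 3 or 4 it had 3 higher and 36 lower, with medians of -0.24 and -0.25. Within the low-numbered libraries 21 were higher and 18 lower, with a median of 0.01, and within the high-numbered ones 3 were higher and 36 lower, with a median of -0.20.

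**Figure D3:**
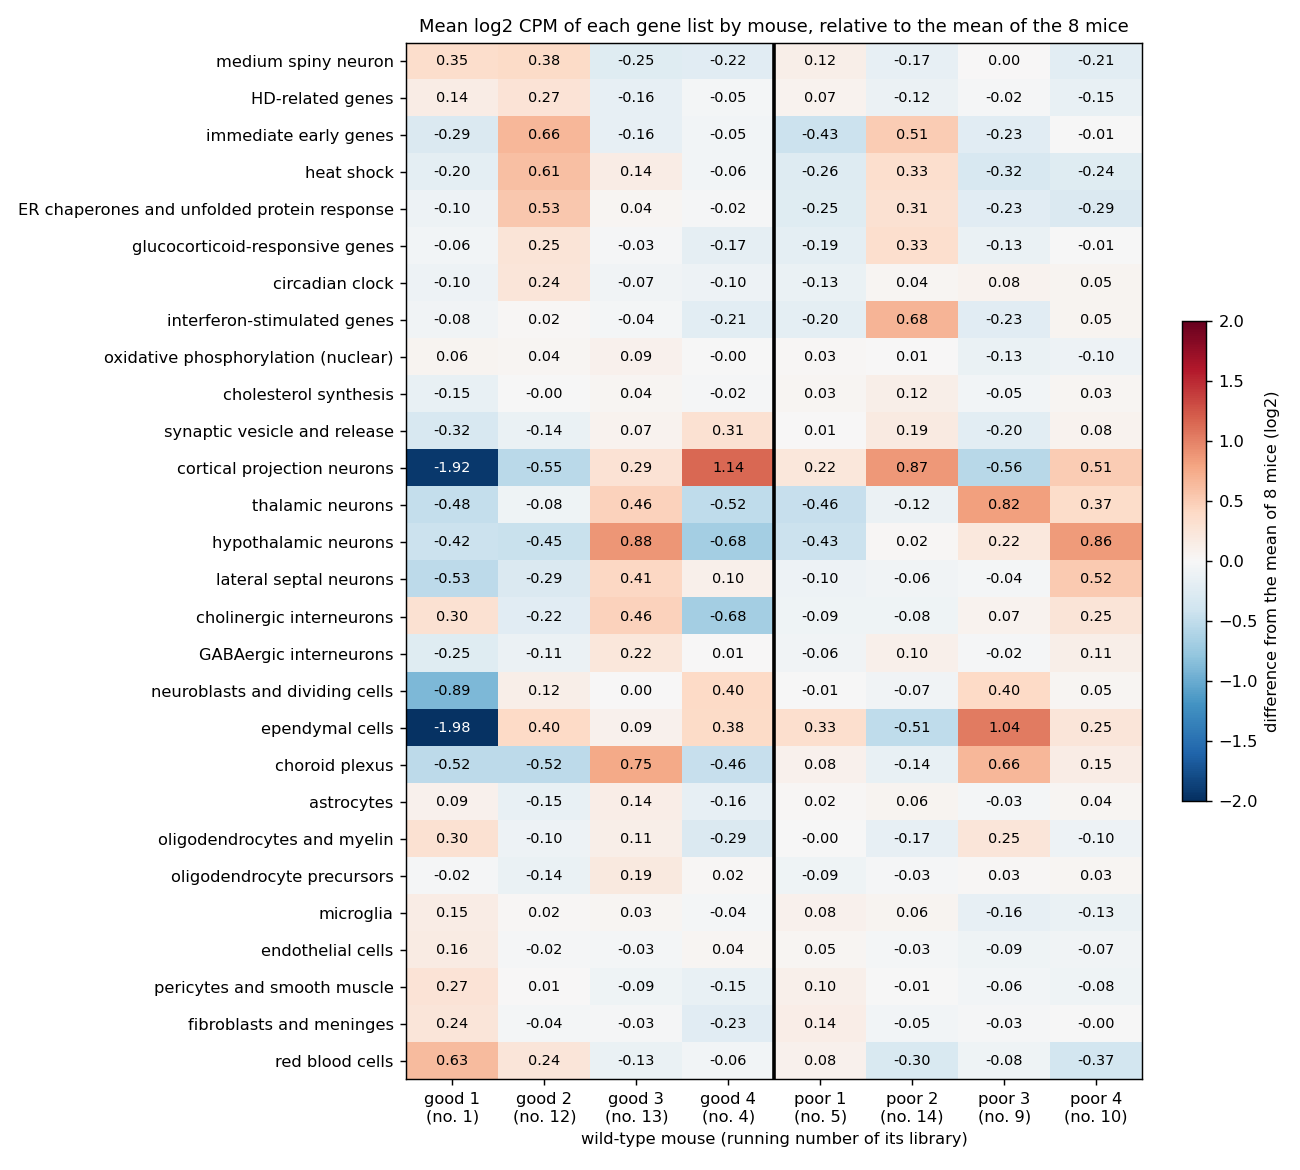
Mean log2 CPM of each gene list (rows) in each of the 8 wild-type mice (columns, with the running number of the library), relative to the mean of the 8 mice; red is above and blue below it, and the black line divides “good” from “poor” mice. The widest rows are cortical projection neurons (-1.92 to 1.14) and ependymal cells (-1.98 to 1.04), and immediate early, heat shock and ER chaperone genes are highest in “good” mouse 2 and “poor” mouse 2.

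Immediate early genes, which neurons switch on within minutes of activity, separated mice and not groups. The mean of 47 of them was -0.29, 0.66, -0.16 and -0.05 in the “good” mice and -0.43, 0.51, -0.23 and -0.01 in the “poor” mice. “Good” mouse 2 and “poor” mouse 2 stood above the other 6 mice, so each group held 1 mouse with a high value. Egr1 read 227, 515, 111 and 159.9 CPM in the “good” mice and 99, 301, 149 and 164 CPM in the “poor” mice, Egr3 127, 235, 111 and 123 CPM against 101, 148, 112 and 99.6 CPM and the synaptic scaffold Homer1 247, 427, 193 and 229.5 CPM against 174, 279, 184 and 157 CPM. Egr2 read 6.73, 32.9, 3.09 and 3.86 CPM against 2.1, 14.4, 5.17 and 4.1 CPM, a range of 2.1 to 32.9 CPM. In all, 17 members were higher and 30 lower in “poor” mice, with a median of -0.10, and 1 had an unadjusted p under 0.05: Vgf, a secretory granule protein, at 116, 164, 123 and 111 CPM in the “good” mice and 92.4, 117, 85.2 and 98.9 CPM in the “poor” mice, with a log2 fold change of -0.38 (95% confidence interval -0.68 to -0.09) and overlap between groups. At that p 1.41% of all genes were lower. Without “good” mouse 2 the list turned to 34 higher and 13 lower, with a median of 0.12.

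Heat shock genes and genes of the endoplasmic reticulum (ER) were high in the same 2 mice. Heat shock proteins are chaperones of the cytosol induced when proteins unfold, and the ER has its own set, led by BiP (Hspa5), which the unfolded protein response induces. The mean of 18 heat shock genes was -0.20, 0.61, 0.14 and -0.06 in the “good” mice and -0.26, 0.33, -0.32 and -0.24 in the “poor” mice, and that of 20 ER genes was -0.10, 0.53, 0.04 and -0.02 in the “good” mice and -0.25, 0.31, -0.23 and -0.29 in the “poor” mice. Hspa5 read 292, 698, 340.1 and 339 CPM in the “good” mice and 224, 579.7, 224 and 204 CPM in the “poor” mice. The calcium-binding chaperone Calr read 368, 569, 476 and 386 CPM against 311, 466, 329 and 309 CPM and Hsp90b1, the ER form of HSP90, 301, 478, 387 and 308 CPM against 288, 404, 275 and 259 CPM. Hspa1b, the inducible HSP70 and a near copy of Hspa1a, read 1.91, 13.5, 5.03 and 7.2 CPM against 2.78, 11.3, 2.33 and 3.06 CPM, and Hsph1, its nucleotide exchange factor, 298, 599.8, 372 and 324 CPM against 289, 410.1, 286 and 281 CPM. In all 5 genes “good” mouse 2 was the highest of its group and “poor” mouse 2 the highest of its own.

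Between the groups, 18 of 18 heat shock genes and 18 of 20 ER genes were lower in “poor” mice, with medians of -0.23 and -0.26, and the mouse means overlapped. At an unadjusted p under 0.05 there was 1 heat shock gene, Cryab, a small heat shock protein of glia, with a log2 fold change of -0.25 (95% confidence interval -0.50 to -0.0024), and 2 ER genes, Ddit3 (log2 fold change -0.27), a transcription factor of the unfolded protein response, and Hyou1 (log2 fold change -0.23), an ER chaperone, where 1.41% of all genes were lower at that p. Without “good” mouse 2 the heat shock list had 6 higher and 12 lower with a median of -0.06, and the ER list 4 higher and 16 lower with a median of -0.06. Within the high-numbered libraries the medians were -0.43 and -0.38, and within the low-numbered ones -0.15 and -0.16.

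The promoters of Hspa5, Hsp90b1 and Calr are printed as examples that hold an element found in 7 of 18 ER gene promoters. Sequences are RefSeq’s, on GRCm38.p6, and give the 250 bases before the transcription start on the gene’s strand, in lower case with motif matches, the bases between their parts included, in capitals. All motifs were searched on both strands. Hspa5 (chr2:34771840-34772089, plus strand), Hsp90b1 (chr10:86705445-86705694, minus strand) and Calr (chr8:84846932-84847181, minus strand) hold the ER stress response element, written CCAAT, 9 bases, CCACG.
Hspa5: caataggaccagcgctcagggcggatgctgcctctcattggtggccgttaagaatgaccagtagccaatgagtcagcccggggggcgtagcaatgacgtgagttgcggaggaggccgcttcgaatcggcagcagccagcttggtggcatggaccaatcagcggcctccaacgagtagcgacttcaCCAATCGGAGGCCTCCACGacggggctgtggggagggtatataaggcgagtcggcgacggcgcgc
Hsp90b1: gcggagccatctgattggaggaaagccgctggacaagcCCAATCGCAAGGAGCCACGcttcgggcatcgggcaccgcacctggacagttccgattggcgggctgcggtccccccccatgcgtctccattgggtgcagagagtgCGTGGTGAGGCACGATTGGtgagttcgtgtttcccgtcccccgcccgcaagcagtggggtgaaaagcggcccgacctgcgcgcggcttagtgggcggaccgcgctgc
Calr: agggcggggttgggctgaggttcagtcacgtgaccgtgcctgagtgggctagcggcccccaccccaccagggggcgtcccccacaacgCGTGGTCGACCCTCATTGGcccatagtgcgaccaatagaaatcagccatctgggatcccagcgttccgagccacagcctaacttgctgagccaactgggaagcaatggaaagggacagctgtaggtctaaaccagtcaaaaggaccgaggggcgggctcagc

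Of the 20 ER genes, 18 had a RefSeq promoter, and 7 of these (38.9%) held the element: Calr, Canx, Creld2, Dnajc3, Hsp90b1, Hspa5 and Pdia6. Of 27025 genes with a promoter, 35 (0.13%) held it. For the 13 heat shock genes with a promoter, the heat shock element written GAA, 2 bases, TTC, 2 bases, GAA was found in 2 (15.4%), Hspd1 and Hspe1, and in 139 of all genes (0.514%). The cyclic AMP response element TGACGTCA was found in 6 of 35 immediate early genes (17.1%), Arl4d, Btg2, Dusp1, Maff, Pcsk1 and Ppp1r15a, and in 478 of all genes (1.77%). A match is a run of letters in this window and not a site shown to be used.

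Interferon-stimulated genes, which cells raise against viruses through STAT factors, were high in 1 mouse. The mean of 31 of them was -0.08, 0.02, -0.04 and -0.21 in the “good” mice and -0.20, 0.68, -0.23 and 0.05 in the “poor” mice. “Poor” mouse 2 stood above the other 7 mice. Ifit1, an antiviral RNA-binding protein, read 3.36, 6.3, 4.33 and 3.44 CPM in the “good” mice and 2.63, 10.6, 3.43 and 4.96 CPM in the “poor” mice, Oasl2 5.12, 4.96, 6.45 and 5.01 CPM against 4.64, 15.6, 4.86 and 8.62 CPM and the double-stranded RNA sensor Ifih1 5.42, 5.14, 5.08 and 4.8 CPM against 4.44, 8.69, 6.4 and 6.47 CPM. B2m, the light chain of class I molecules, read 92.7, 83.3, 96.8 and 82.6 CPM against 81.9, 144, 72.5 and 90.4 CPM and the heavy chain H2-D1 66.2, 54, 60.2 and 54.3 CPM against 57.4, 86.7, 49.7 and 56.4 CPM. In all, 28 of 31 members were higher in “poor” mice, with a median of 0.15 and 0 at an unadjusted p under 0.05. Without “poor” mouse 2 the count was 12 higher and 19 lower and the median -0.04. The promoter of Ifit1 (RefSeq, GRCm38.p6, chr19:34640639-34640888, plus strand) is printed with the interferon-stimulated response element, written GAAA, 2 bases, GAAA, in capitals.
Ifit1: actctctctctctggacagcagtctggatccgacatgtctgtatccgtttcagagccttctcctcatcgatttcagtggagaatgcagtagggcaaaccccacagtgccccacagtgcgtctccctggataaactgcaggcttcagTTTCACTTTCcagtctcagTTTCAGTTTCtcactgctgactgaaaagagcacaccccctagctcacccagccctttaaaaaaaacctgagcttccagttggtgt
The element was found in 13 of 26 interferon-stimulated genes with a promoter (50.0%) and in 936 of 27025 genes in all (3.46%).

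Glucocorticoid-responsive genes, which follow the stress hormone, gave 14 higher and 15 lower of 29, with a mean of -0.06, 0.25, -0.03 and -0.17 in the “good” mice and -0.19, 0.33, -0.13 and -0.01 in the “poor” mice. The highest mice were again “good” mouse 2 and “poor” mouse 2. This list shares Per1, Dusp1 and Arl4d with the immediate early genes. Zbtb16, a transcription factor induced through the glucocorticoid receptor, read 3.86, 10.5, 5.96 and 5.27 CPM against 3.32, 14.5, 4.26 and 6.38 CPM, and Plin4, a lipid droplet protein, 3.91, 5.99, 3.49 and 2.82 CPM against 2.39, 9.82, 2.37 and 3.88 CPM. The metallothionein Mt2 was 1 of 2 members with an unadjusted p under 0.05, at 32.1, 27.6, 25.3 and 28.3 CPM against 26.6, 22.5, 19.5 and 19.8 CPM, with a log2 fold change of -0.36 (95% confidence interval -0.61 to -0.10). Both members were lower, where 1.41% of all genes were lower at that p. Of 18 circadian clock genes 12 were higher, and Per3 had an unadjusted p under 0.05, with a log2 fold change of 0.24 (95% confidence interval 0.03 to 0.44). At that p 1.03% of all genes were higher. Per2 was highest in the same pair of mice, at 32.5, 68.2, 32.6 and 36.1 CPM against 23.5, 48.8, 33.4 and 31.6 CPM. The clock list as a whole did not follow that pair. Its mean was -0.10, 0.24, -0.07 and -0.10 in the “good” mice and -0.13, 0.04, 0.08 and 0.05 in the “poor” mice. “Poor” mice 3 and 4 lay above “poor” mouse 2. The hour at which each striatum was taken is not given in the sources used here.

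Nuclear genes of oxidative phosphorylation, the mitochondrial chain that makes most ATP, had small estimates that were nearly all of 1 sign. Of 38 members 36 were lower in “poor” mice, with a median of -0.10, 5 were lower at an unadjusted p under 0.05 and 3 were lower with no overlap between groups, where 1.41% and 0.976% of all genes were. Ndufa2, a subunit of complex I, read 67.3, 63.4, 65.9 and 65 CPM in the “good” mice and 60.7, 59.5, 53.1 and 55.1 CPM in the “poor” mice, with a log2 fold change of -0.20 (95% confidence interval -0.35 to -0.04). Cox8a, of cytochrome oxidase, read 243, 245, 226 and 243 CPM against 229, 189, 205 and 207 CPM, with a log2 fold change of -0.21 (95% confidence interval -0.37 to -0.04). The mean of the list was 0.06, 0.04, 0.09 and -0.001 in the “good” mice and 0.03, 0.01, -0.13 and -0.10 in the “poor” mice. “Poor” mice 3 and 4 were lowest and “poor” mice 1 and 2 lay within the range of the “good” mice. Within the low-numbered libraries 17 members were higher and 21 lower, with a median of -0.0069, and within the high-numbered ones 38 of 38 were lower, with a median of -0.14. The mRNAs made inside mitochondria could not be set beside them, being listed at 0.

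Haemoglobin transcripts, which come with red blood cells left in the vessels, were highest in “good” mice 1 and 2. Hba-a2 read 170.1, 110.4, 80.2 and 84.7 CPM in the “good” mice and 106, 71.7, 81.6 and 62.4 CPM in the “poor” mice and Hbb-bs 76, 76.5, 41 and 42.3 CPM against 47, 39.1, 41.7 and 37.2 CPM; the alpha and the beta genes are each a pair of near-identical copies. Of 6 members 6 were lower in “poor” mice, with a median of -0.43 and, without “good” mouse 1, of -0.19. None of these genes passed the adjusted threshold. Endothelial markers had a median of -0.06, pericyte and smooth muscle markers -0.06, and fibroblast and meningeal markers -0.07.

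Glial lists had medians between -0.10 and 0.01. Myelin genes had 8 of 19 members higher and a median of -0.02, and Mbp, the myelin basic protein, read 6539, 4875, 5699 and 4544 CPM in the “good” mice and 5519.7, 4539, 5909.8 and 4501 CPM in the “poor” mice. The myelin count rested on single mice, with 17 of 19 higher without “good” mouse 1 (median 0.06), 1 of 19 without “good” mouse 4 (-0.11) and 2 of 19 without “poor” mouse 3 (-0.11). Of 18 microglial markers 14 were lower, with a median of -0.10. Fcrls had an unadjusted p under 0.05 and no overlap, at 40.5, 44.5, 40.5 and 41.2 CPM against 39.9, 30.3, 33.6 and 38.7 CPM, and Csf1r, the receptor on which microglia depend, read 233, 202, 203 and 201 CPM against 204, 192, 185 and 188 CPM. Of all genes, 1.41% were lower at that p and 0.976% were lower with no overlap between groups. The means of the 18 microglial markers overlapped between groups. Oligodendrocyte precursor markers had 5 of 10 higher and cholesterol synthesis genes 17 of 24, with medians of 0.01 and 0.07. Synaptic vesicle genes, potassium channels and neuropeptide precursors had medians of -0.02, -0.02 and -0.04. Among GABAergic interneuron markers 9 of 18 were higher, and Pthlh, a peptide of parvalbumin neurons, was the 1 with an unadjusted p under 0.05 (log2 fold change -0.67). At that p 1.41% of all genes were lower.

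Healthy mice of one group were not all alike, and the “good” mice differed from each other more than the “poor” mice did. The biological coefficient of variation is the relative spread between the libraries of a group that edgeR estimates beyond counting error. With 1 dissected striatum per library it includes any differences in dissection and preparation, whose part was not tested. It was 18.8% in the wild-type “good” mice and 11.7% in the wild-type “poor” mice. In the R6/1 groups it was 14.5% (“good”) and 16.6% (“poor”). Leaving out each mouse in turn gave 18.1% to 19.7% in “good” and 9.87% to 13.3% in “poor” mice, so the order of the wild-type groups did not rest on any single mouse. Of 14510 genes, 69.6% had the larger standard deviation of log2 CPM in the “good” group, with medians of 0.17 and 0.13. The difference in spread was not tested.

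Distances between individual mice had the same order. The coefficient of variation between 2 mice was 15.4% to 20.7% for the 6 pairs of “good” mice, with a median of 18.5%, and 8.82% to 15.3% for the 6 pairs of “poor” mice, with a median of 10.6%. For the 16 pairs of a “good” and a “poor” mouse it was 7.62% to 19.2%, with a median of 13.9%. The closest of all 28 pairs was “good” mouse 3 with “poor” mouse 4, which belonged to different groups. The main axis of a principal component analysis held 33.6% of the variance and set “good” mice 1 and 2 at one end, at -32.7 and -19.4, against “good” mouse 4 at the other, at 17.6. The “poor” mice lay between -1.49 and 13.4 on it. Genes with the largest weights at its positive end included Slc17a7, Tbr1, Neurod2 and Nrn1 of cortical neurons and Ccdc153 and Tmem212 of ependymal cells. Those at its negative end included Egr2 and Gm28437. The part of neighbouring tissue in these distances was not tested.

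**Figure D4:**
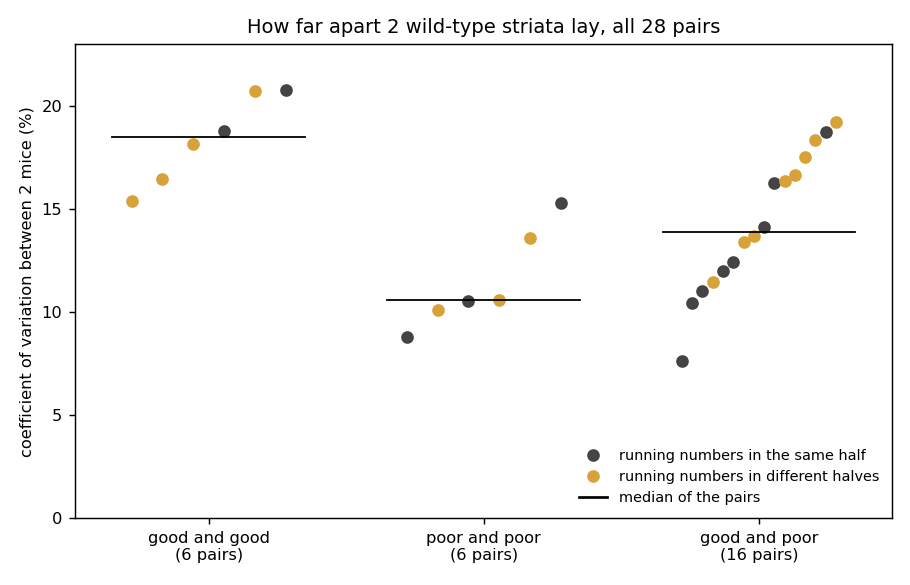
Coefficient of variation between 2 wild-type mice (y axis, in percent) for each of the 28 pairs, grouped by whether both were “good”, both “poor” or 1 of each (x axis); dark points are pairs whose running numbers both lie in 1 to 8 or both in 9 to 16, yellow points the others, and lines are medians. Pairs of “good” mice lie at 15.4% to 20.7% and pairs of “poor” mice at 8.82% to 15.3%, while pairs across groups span 7.62% to 19.2%.

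The genes that varied most between the 8 healthy mice were ranked by the standard deviation of log2 CPM. The median over 14510 genes was 0.16, and 77 genes exceeded 1. The 30 most variable genes had standard deviations of 1.26 to 2.77, the gene just outside having 1.25. None of the 30 had an unadjusted p under 0.05 between the groups, the smallest being 0.226, and 18 of the 30 were higher in “poor” mice. Of the 30, 10 were markers of a cell type on the lists used here.

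Genes of cortical projection neurons, the excitatory cells of the cortex that lies above the striatum, made up the largest set, with 6 of the list’s 16 expressed members among the 30. Slc17a7, the vesicular glutamate transporter of cortical neurons, read 6.57, 81.7, 196 and 571 CPM in the “good” mice and 218, 344, 51.6 and 225 CPM in the “poor” mice. The range from lowest to highest mouse lay within the “good” group itself, and the groups had a log2 fold change of -0.03 (95% confidence interval -2.64 to 2.59). Slc30a3, a zinc transporter of the same synapses, read 0.502, 6.26, 21 and 57.2 CPM against 26.2, 49, 1.74 and 21.4 CPM. Tbr1, a transcription factor of deep-layer neurons, read 1.46, 6.53, 18.9 and 47.3 CPM against 18.1, 36, 7.7 and 25.1 CPM, Neurod2 0.15, 2.1, 6.09 and 19.4 CPM against 6.83, 11.4, 1.5 and 8.15 CPM and Nrn1, a neurite growth protein, 0.703, 10.8, 22 and 38.2 CPM against 19.8, 53.1, 7.94 and 21.9 CPM. In each of these genes “good” mouse 1 was lowest and “good” mouse 4 or “poor” mouse 2 highest.

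Neurod6, Rtn4rl2, Igfn1 and the growth factor Bdnf, which cortical axons supply to the striatum, followed a similar order, and Bdnf read 0.15, 4.29, 7.42 and 16.7 CPM against 4.44, 20.2, 1.66 and 4.18 CPM. The orphan nuclear receptor Nr4a2 read 1.004, 9.48, 9.14 and 39.3 CPM against 13, 20.6, 5.88 and 16.3 CPM, with “good” mouse 4 highest and “good” mouse 1 lowest, unlike Egr1. The mean of the 18 cortical markers was -1.92, -0.55, 0.29 and 1.14 in the “good” mice and 0.22, 0.87, -0.56 and 0.51 in the “poor” mice. Mef2c, which striatal neurons also express, spanned only 109 to 248 CPM, and Lmo3 172 to 292 CPM. Medium spiny neuron genes ran in part against the cortical ones, being highest in “good” mice 1 and 2, the mice with the lowest and the third lowest cortical mean.

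Ependymal cells line the ventricle beside the striatum with motile cilia. Of their markers, Ccdc153, Tmem212 and Dnah12 were among the 30. Ccdc153 was at 0 in “good” mouse 1 and read 0, 6.17, 3.4 and 5.79 CPM in the “good” mice and 5.56, 2.21, 9.67 and 4.31 CPM in the “poor” mice. Tmem212 was also at 0 in that mouse, and a count of 0 there allows up to 0.149 CPM. Dnah12, a motor protein of cilia, read 0.15, 1.74, 1.77 and 1.72 CPM against 2.15, 0.799, 4.9 and 1.85 CPM. The mean of 18 markers was -1.98, 0.40, 0.09 and 0.38 in the “good” mice and 0.33, -0.51, 1.04 and 0.25 in the “poor” mice, with “good” mouse 1 lowest and “poor” mouse 3 highest. Foxj1, the master regulator of motile cilia, varied less, at 8.46 to 15.8 CPM. Between the groups, 17 of 18 were higher in “poor” mice with a median of 0.39. Without “good” mouse 1 that became 10 higher and 8 lower with a median of 0.08, and without “poor” mouse 3, 11 higher and 7 lower with a median of 0.04.

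Markers of other neighbours of the striatum were high in a few mice of both groups. “Good” mouse 3 was among the highest in the choroid plexus, thalamic, hypothalamic and septal means. Whether pieces of these regions came with the striatum was not tested. Ttr, the thyroid hormone carrier made by the choroid plexus, read 0.95, 0.36, 19.7 and 0.99 CPM against 7.12, 1.36, 11.4 and 1.29 CPM, high in “good” mouse 3 and in “poor” mice 1 and 3. Shox2, a transcription factor found in the thalamus, read 0.05, 3.44, 4.02 and 0 CPM in the “good” mice and 0.195, 0, 11.3 and 1.55 CPM in the “poor” mice, and Prkcd, a kinase of thalamic relay neurons, 18.6, 19, 19.9 and 15.7 CPM against 16, 18.2, 58.2 and 19.9 CPM. The mean of 14 thalamic markers was -0.48, -0.08, 0.46 and -0.52 in the “good” mice and -0.46, -0.12, 0.82 and 0.37 in the “poor” mice, and 14 of 14 were higher in “poor” mice with a median of 0.26. Without “poor” mouse 3 8 were higher and 6 lower, and the median was 0.02. The hypothalamic mean was -0.42, -0.45, 0.88 and -0.68 in the “good” mice and -0.43, 0.02, 0.22 and 0.86 in the “poor” mice, led by “good” mouse 3 and “poor” mouse 4. Slc17a6, the glutamate transporter of thalamic and hypothalamic neurons, read 3.31, 13.5, 33.5 and 7.72 CPM against 7.08, 19.9, 37 and 29.1 CPM. Agt, the angiotensinogen of astrocytes in these deeper regions, read 30.9, 8.27, 66 and 6.05 CPM against 35.9, 35.4, 46 and 47.1 CPM, with “good” mice 2 and 4 lowest.

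The septal transcription factor Zic1 read 17.8, 21.1, 30.3 and 10.9 CPM against 14.6, 16, 37.1 and 40.6 CPM. Ndst4, also on the septal list, read 8.28, 6.97, 26.3 and 44.9 CPM against 16.2, 21.8, 5.88 and 27.8 CPM. These genes did not run together, since “good” mouse 4 was the lowest mouse for Zic1 and the highest for Ndst4. Ngfr, the neurotrophin receptor of basal forebrain cholinergic neurons, read 11.1, 1.74, 19.3 and 1.93 CPM against 6.25, 5.82, 8.01 and 11.7 CPM, while Chat, the enzyme that makes acetylcholine in them and in striatal interneurons, read 34.8, 27, 29.3 and 16.6 CPM against 22.1, 22.2, 24.8 and 22.3 CPM. “Good” mouse 4 had the lowest Chat of its group. Top2a, a gene of dividing cells, which persist in the wall of the ventricle, read 1.3, 6.62, 3.09 and 10.02 CPM against 4.49, 3.19, 9.002 and 4.48 CPM, and Dcx, of migrating neuroblasts, 15.9, 27.8, 34.6 and 48.7 CPM against 34.7, 36.8, 41.2 and 40.6 CPM; “good” mouse 1 was lowest for both.

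**Figure D5:**
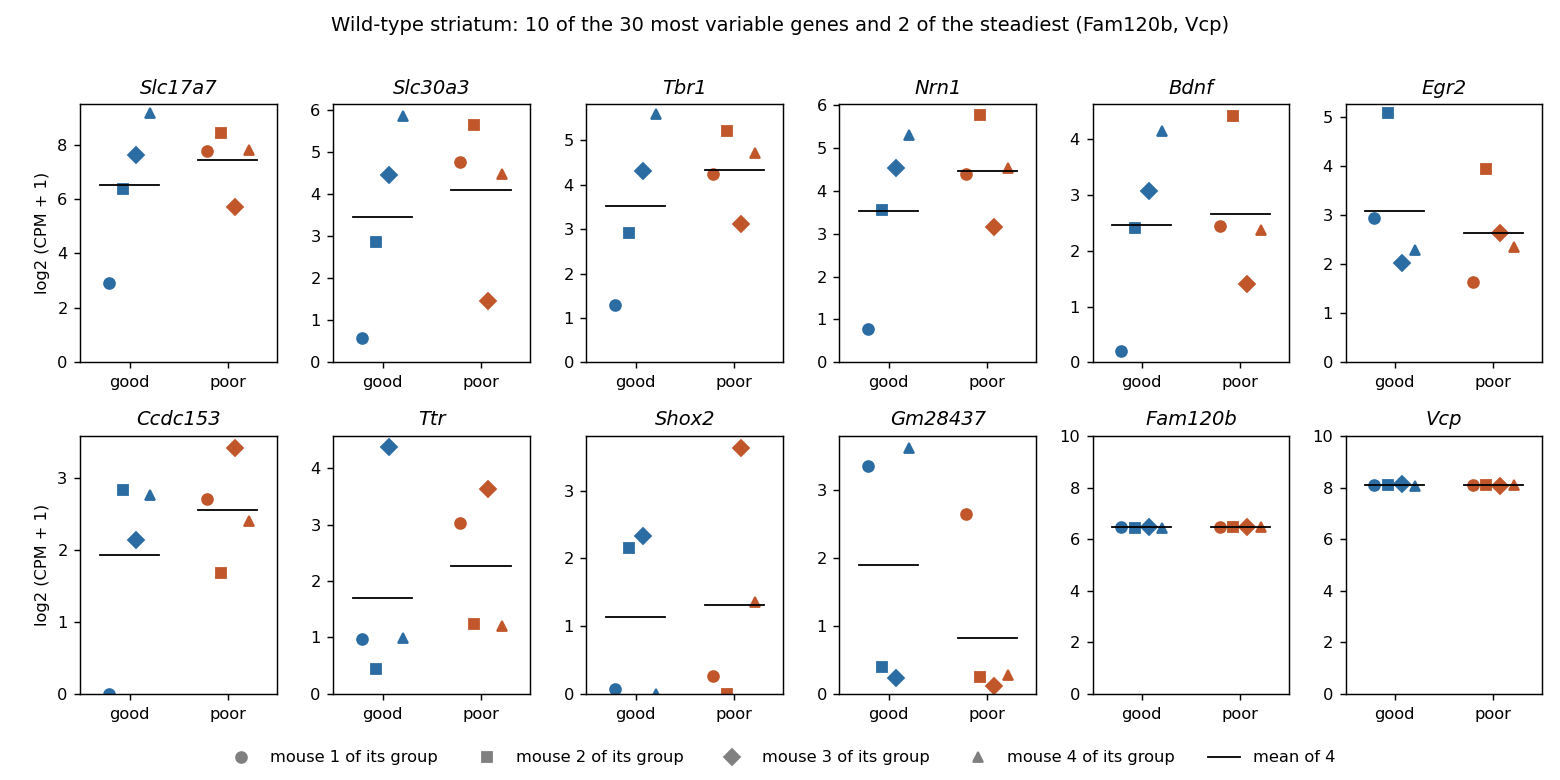
Expression in each wild-type mouse, as log2 of CPM plus 1 (y axis), in the “good” (blue) and “poor” (orange) group (x axis) for 10 of the 30 most variable genes and 2 of the 10 steadiest; each symbol is 1 mouse and lines are means of 4. The “good” mice alone span 6.57 to 571 CPM for Slc17a7, whereas Fam120b and Vcp form flat rows.

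Some variable genes were not markers of a neighbouring region. Xlr3c, an X-linked gene of a family of near-identical copies whose reads cannot be assigned with certainty, read 1.36, 13.3, 3.003 and 8.92 CPM in the “good” mice and 8.78, 8.69, 1.42 and 2.98 CPM in the “poor” mice, with no order by group. Gm22009, a small Cajal body RNA, read 9.08, 2.15, 0.22 and 0.31 CPM against 4.73, 0.19, 0.24 and 0.086 CPM, and like Rn7sk it is not an mRNA with a poly(A) tail. Gm28437, a pseudogene, differed by running number and is described with it. Among the lists, 30 of the 45 immediate early genes expressed at this level had a standard deviation above the 90th percentile of all genes, and 13 of 16 cortical, 8 of 10 ependymal and 9 of 12 thalamic markers, against 0 of 38 genes of oxidative phosphorylation and 0 of 18 microglial markers. The lists were chosen with such values known, and these counts describe them.

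The steadiest genes held nearly the same level in all 8 mice. Fam120b lay at 86.3 to 88.6 CPM, a standard deviation of 0.014, and Extl3, an enzyme of heparan sulphate synthesis, at 133 to 141 CPM. The ATPase Vcp lay at 265 to 282 CPM, the proteasome subunit Psma7 at 76.2 to 81.1 CPM and Syt11, a synaptotagmin, at 835 to 889 CPM. Rab3gap1, Snx12, Cdk11b and Gpat4 were also among the 10. Snx12, a sorting nexin, was the only one of the 10 whose groups did not overlap, at 43.3, 43.4, 44.5 and 43.8 CPM in the “good” mice and 42.5, 41.9, 42.8 and 42.5 CPM in the “poor” mice, a log2 fold change of only -0.04 with an unadjusted p of 0.494.

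The running number of the library was set against expression with performance in the model. It gave 8 called genes (0.0413%), 3 higher and 5 lower in the high-numbered libraries, and 2390 genes at an unadjusted p under 0.05 (12.3%), more than performance gave. Gm28437 (chromosome 1, 24613189 to 24613971, GRCm38), an unprocessed pseudogene, led with 5.27 to 11.3 CPM in the low-numbered and 0.079 to 0.31 CPM in the high-numbered wild-type libraries, a log2 fold change of -5.24 and an edgeR adjusted p of 5.67e-05. All 759 of its runs of 25 bases also occur in the mitochondrial gene mt-Co3, whose own count is 0 in every library, and whether reads of the mitochondrial mRNA were counted there was not tested. The R6/1 libraries, which that fit did not use, had 4.55 to 27 CPM in the low-numbered and 0.082 to 1.37 CPM in the high-numbered R6/1 libraries.

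Ilk, a kinase at integrin adhesions, had 4.15 to 6.36 CPM in the low-numbered and 1.46 to 2.16 CPM in the high-numbered wild-type libraries (log2 fold change -1.56, edgeR adjusted p 0.0208), and the junction protein Ajm1 had a log2 fold change of -1.86. Of the called genes lower in the high-numbered libraries, Gm13339 and Gm10925 had the lowest counts, below the level set for named genes, and are named after their values were seen. Gm13339 had 66, 63 and 33 counts in the low-numbered and 0 to 4 in the high-numbered wild-type libraries. The called genes that were higher in the high-numbered libraries were Nap1l3 (log2 fold change 0.62), Vma21 (0.50 on the same scale), an assembly factor of the vacuolar ATPase, and Dr1 (0.59 likewise), a repressor of transcription. Vma21 had 49.7 to 56.8 CPM in the low-numbered and 73.8 to 77.3 CPM in the high-numbered wild-type libraries and 62.7 to 76.4 CPM in the low-numbered and 82.7 to 102 CPM in the high-numbered R6/1 libraries. In both genotypes the ranges of Vma21 and Gm28437 did not overlap by running number. The edgeR count of 8 calls rested on all 8 mice: leaving out any 1 left 1 or 2 called genes. The count also depended on the method, with 250 called by DESeq2 and 248 by edgeR with no filter on low counts. For performance, adding the running number to the model gave 0 called genes and 491 at an unadjusted p under 0.05.

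The difference between “poor” and “good” was also set beside that in R6/1 mice, with which it shares no library. The interaction of genotype and performance was called in 0 genes (0.0%) by edgeR, with 1118 genes (5.77%) at an unadjusted p under 0.05, and in 1 by DESeq2, which was Ano2 (DESeq2 adjusted p 0.019). The interaction is the log2 fold change in R6/1 mice minus that in wild-type mice. The genes with the smallest unadjusted p had estimates of opposite sign in the 2 genotypes. Ranking by a difference favours such genes, so the opposite signs are a description. The wild-type values that placed Ano2, Pglyrp1 and Spred3 among the leading genes also enter the interaction. Ano2 had a log2 fold change of 0.47 in wild-type and -0.68 in R6/1 mice, an interaction of -1.16 ± 0.22 (SE). Notch4, a receptor of vessels, had log2 fold changes of -0.26 and 0.63, an interaction of 0.87 ± 0.19 (SE). Pglyrp1 and Spred3, both among the leading genes lower in wild-type “poor” mice, had log2 fold changes of 0.95 and 0.38 in R6/1 mice. The smallest adjusted p of the interaction in edgeR was 0.708.

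Over 14510 genes the log2 fold changes of the 2 genotypes had a Pearson correlation of 0.33. In both genotypes the “poor” group held more high-numbered libraries than the “good” group. With the running number in both models the correlation was 0.023. The R6/1 “good” libraries had numbers 2, 3, 7 and 8, and of the R6/1 “poor” libraries only that of mouse 2 had a low number, 6. With the running number in the model, the R6/1 estimate therefore rested on that mouse against the “good” mice. Why the correlation was lower was not tested. Genes are not independent of each other, and the value is a description.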

How the data were processed

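Striatal mRNA of 16 mice, 1 library per mouse, was sequenced by the authors as paired-end reads from stranded mRNA libraries. Per the labels and the study’s methods, reads were aligned with TopHat (version 1.0.1) and Bowtie to the mouse genome (GRCm38/mm10). The deposited table holds raw read counts per gene for 55450 genes. How the counting treated strand, and its gene annotation, is not stated in the sources used here. Gene names and positions came from GENCODE M21, in which all 55450 identifiers were found.

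Groups followed the labels. The 19363 genes that reached 10 counts in 4 or more libraries entered edgeR (4.0.16) with TMM factors and a robust quasi-likelihood test on the 8 wild-type libraries, with Benjamini-Hochberg adjustment over all genes and a threshold of 0.05. Log2 fold changes are unshrunk estimates with Wald-type standard errors. CPM used TMM-scaled library sizes, and log2 CPM a prior count of 2. List means and standard deviations between mice were taken on that scale. DESeq2 (1.42.0), other filters and factors, leaving out each mouse, a replicate block, all 4 groups in 1 fit and the running number were alternatives. The fitting code was tested on simulated data. Libraries held 19107671 to 24897354 counts, and the intervals cover counting error and the spread between 4 and 4 mice together. A count of 0 was taken to allow 3 counts.

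Genes named were the 12 with the smallest p-value in each direction (average log2 CPM of 1 or more), genes of 3 lists drawn up around genes the study names, the 30 most variable and 10 steadiest genes (the latter at an average of 5 or more), those leading the running-number and interaction tests, and examples from the lists. The libraries, lists and examples were chosen with earlier results of these data known. One of the steadiest genes is not reported here. Figures were drawn with matplotlib (3.10.9).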

Additional observations from a re-analysis of the deposited data

Results flagged for a closer look

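Each value below is the gap of 1 mouse to the nearest other mouse of its group of 4, divided by the range of the group, and exceeded Dixon’s critical value at the 95% level. Of 416 groups of 4 examined, for genes and list means, 35 (8.41%) did so. Chance alone flags about 5.0% of groups picked without regard to their values. The genes here include those picked for their spread or their p-value, and the lists were chosen with earlier results known. The 5.0% therefore does not hold for this set, and whether 8.41% is an excess cannot be decided. The groups overlap in genes that vary together, so the 35 are not independent.

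“Poor” mouse 2 stood highest among “poor” mice for Hsph1 (0.922), Hspa5 (0.910), Cdkn1a (0.873), Calr (0.847), Hspa8 (0.838) and Hspa1b (0.830), and for the means of the ER chaperone (0.913) and heat shock (0.885) lists. “Good” mouse 2, the other mouse with high stress and immediate early genes, stood highest for Per2 (0.857) and the circadian mean (0.912), and lowest for Fgfr3 (0.844). “Good” mouse 1 stood lowest for the ciliary genes Dnah12 (0.988), Tmem212 (0.883) and Ccdc153 (0.862), for the ependymal mean (0.868) and for Ano2 (0.920), and highest for Csf1r (0.950).

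“Good” mouse 3 stood highest for the choroid plexus mean (0.953), the hypothalamic mean (0.836), Oasl2 (0.881) and Nnat (0.865), an imprinted gene with high levels in hypothalamus, and lowest for Cox8a (0.857). “Good” mouse 4 stood lowest for Plekhg1 (0.971) and Cryab (0.933). “Poor” mouse 3 stood highest for Chat (0.906), Plekhg1 (0.894), Igfbp5 (0.843), Extl3 (0.835) and Prkcd (0.832). “Poor” mouse 4 stood highest for the lateral septal mean (0.911). Extl3 was among the steadiest genes, with a whole range of 133 to 141 CPM over the 8 mice.

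“Poor” mouse 1, the only wild-type “poor” mouse with a running number of 1 to 8, stood highest for Ilk (0.865) and Gm28437 (0.8294) and lowest for Dr1 (0.917), Dnajb9 (0.908) and Vma21 (0.848). The edgeR adjusted p by running number over the 8 mice was 5.67e-05 for Gm28437, 0.0208 for Ilk, 0.0452 for Dr1 and 0.0444 for Vma21, and 0.0573 for Dnajb9, which did not pass.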

How the results depend on the processing

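No gene was called between wild-type “poor” and “good” mice under any of the 17 alternatives. The number at an unadjusted p under 0.05, 472 in the fit reported, was 1060 with no filter on low counts (37961 genes tested), 297 with at least 50 counts, 886 with a replicate block and 141 within running numbers 1 to 8. Leaving out 1 mouse gave 204 (without “poor” mouse 3) to 1159 (without “good” mouse 3), with 210 without “poor” mouse 4, 318 without “good” mouse 1, 788 without “poor” mouse 2 and 808 without “good” mouse 4. The labels do not say that replicate numbers pair the mice. Deviations of same-numbered mice correlated at 0.28, 0.25, -0.03 and 0.15, and those of differently numbered mice at -0.34 to 0.44. With so few mice these values do not decide whether the numbers pair them. The block called 0 genes. The running number called 8 genes in the fit reported, 250 with DESeq2, 248 with no filter, 4 with at least 50 counts and 1 to 2 with 1 mouse left out. DESeq2 called 1 gene for the interaction. The coefficient of variation of “good” mice was 18.1% to 19.7% and that of “poor” mice 9.87% to 13.3% with 1 mouse left out.

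Of the 55 genes on the lists drawn up from the study or leading the ranking, 18 changed sign under some alternative, each without having been called, and the cause was not tested. Leaving out 1 mouse gave ranges of -0.14 to 0.015 for Itpka, -0.12 to 0.025 for Rin1, -0.13 to 0.044 for Gabrd, -0.16 to 0.085 for Drd1, -0.31 to 0.020 for Scn4b, -0.11 to 0.069 for Pdyn, -0.20 to 0.091 for Trpc4, -0.0094 to 0.36 for Cdkn1a, -0.19 to 0.017 for Ddit4, -0.054 to 0.10 for Fgfr3, -0.025 to 0.37 for Mdga1, -0.21 to 0.35 for Cacna1g, -0.033 to 0.10 for Cdh2, -0.013 to 0.37 for Dscam, -0.15 to 0.42 for Slit1 and -0.0048 to 0.085 for Nfyb. With the running number as a covariate Itpka was at 0.022, Rin1 at 0.039, Cacna1g at -0.018, Cdh2 at -0.015 and Nfyb at -0.00067. Within running numbers 1 to 8 the values were 0.11 for Penk, 0.10 for Itpka, 0.032 for Rin1, 0.14 for Gabrd, 0.14 for Drd1, 0.17 for Tac1, 0.38 for Pdyn, -0.00405 for Cdkn1a, -0.0013 for Fgfr3, -0.031 for Mdga1, -0.65 for Cacna1g, -0.16 for Cdh2, -0.064 for Dscam and -0.38 for Slit1. Within running numbers 9 to 16 they were 0.041 for Rin1, 0.074 for Trpc4 and -0.030 for Nfyb. Each group held 4 mice, and leaving out 1 mouse changed the sign of the median in 17 of 32 lists: the immediate early, glucocorticoid, R6/1 performance, interferon, synaptic vesicle, potassium channel, neuropeptide, myelin, oligodendrocyte precursor, fibroblast, choroid plexus, cortical, hypothalamic, septal, cholinergic, GABAergic and neuroblast lists.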

Other observations

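The lists not described above are given by their values. Lateral septal markers had 8 of 14 members higher in “poor” mice with a median log2 fold change of 0.03, and cholinergic markers 3 of 11 with -0.09. Neuroblast and dividing cell markers had 12 of 18 higher, with a median of 0.07, and choroid plexus markers 8 of 11, with a median of 0.19. All 4 lists turned with 1 mouse left out. Without “good” mouse 1 the septal markers had 6 of 14 higher (median -0.03), the cholinergic 9 of 11 (0.05) and the neuroblast 3 of 18 (-0.06), and without “poor” mouse 3 the neuroblast markers had 6 of 18 (-0.08). The choroid plexus markers had 5 of 11 higher without “good” mouse 2 (-0.02) and 10 of 11 without “good” mouse 3 (0.77). Cck, a peptide of cortical and other neurons, read 5.32, 14.5, 25.6 and 70.7 CPM in the “good” mice and 20.4, 32, 17.4 and 25.2 CPM in the “poor” mice, in the order of Slc17a7 among “good” mice. Sst, the somatostatin of interneurons, read 124, 125, 159.6 and 149 CPM against 139.5, 129, 124 and 139 CPM, a narrower range. Opalin, a myelin gene, read 80.5, 37.2, 58.8 and 40.2 CPM against 63.8, 37.3, 62.8 and 51.7 CPM, highest in “good” mouse 1, with no order by group.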
